A study of Mus musculus with 24 samples.

Results

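Ly6a, Procr, Slamf1, Cd48, Cd34, Eng, Fgd5, Tgm2, Ctnnal1 and Mllt3 are genes by which mouse long-term haematopoietic stem cells are recognised or sorted. They were taken by gene symbol, and all 10 are among the 24454 rows of the count table. The study sequenced 3 populations sorted from bone marrow: LTHSC (long-term stem cells), preMegE (progenitors of megakaryocytes and erythroid cells) and MkP (megakaryocyte progenitors). The mice were C57BL/6N and had received tamoxifen on 5 days, with sorting at week 12. VF mice carried a Vav1.Cre driver and the Jak2 valine-to-phenylalanine mutation, E12 mice carried a Scl.Cre driver and a Jak2 exon 12 mutation, and KI mice carried a Scl.Cre driver and a mouse Jak2 knock-in. Each group had 3 libraries: VF, E12 and KI in LTHSC and MkP, and VF and KI in preMegE. Which group, if any, has unmutated Jak2 is not stated in the labels, so KI served as the comparison group and is not called wild type here. VF and KI differ in Cre driver as well as in Jak2 allele, and these cannot be told apart. Nothing in the labels ties a replicate to its own mouse, so p-values measure the spread between libraries, which may be technical.

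Stem cells are rare in marrow and are isolated by combinations of surface proteins. Ly6a encodes Sca-1, a GPI-anchored protein of the Ly6 family, and Procr encodes EPCR, the endothelial protein C receptor. Slamf1 (CD150) and Cd48 belong to the SLAM family of immune receptors: mouse long-term stem cells are CD150-positive and CD48-negative. Cd34 is a sialomucin whose protein is low on adult mouse long-term stem cells, and Eng (CD105) is a co-receptor for TGF-beta and BMP ligands. The remaining members act at least in part inside the cell. Fgd5 is a guanine nucleotide exchange factor for Cdc42, Tgm2 a transglutaminase that cross-links proteins, Ctnnal1 alpha-catulin, and Mllt3 (AF9) a chromatin reader of the super elongation complex. The antibodies of the gates used here are not given in the labels. Ly6a, Procr, Slamf1, Cd48, Cd34 and Eng encode antigens of commonly used gates. Their differences between populations therefore describe the sort, and not an independent result.

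Libraries held 10357877 to 29691635 counts, and levels are CPM, counts scaled to a common library size, with factors from the trimmed mean of M values (TMM) over all 24 libraries. A group's error is the SD over 3 libraries. In 4 libraries the TMM factor within the population was under 0.8: MkP KI 6 (0.530), MkP KI 5 (0.585), preMegE KI 1 (0.589) and LTHSC E12 4 (0.754). The library labelled LTHSC E12 4 went against its label in some genes and with it in others. It had 466 CPM of Cd48, against 0.480 to 11.9 CPM in the other 8 LTHSC libraries. It had 3.15 CPM of Fgd5 (29.1 to 46.6 CPM in the other 8), 15.2 CPM of Mllt3 (119 to 180 CPM) and 4.43 CPM of Ctnnal1 (24.04 to 70.1 CPM). The stem cell regulator Mecom stood at 5.21 CPM there, against 78.6 to 126 CPM in the other 8. The 17 neutrophil and monocyte genes summed to 27790 CPM, against at most 3307 CPM in the other 8. Ly6a, at 156 CPM, lay within the other 8 (142 to 267 CPM). Procr, at 32.2 CPM, lay below them (63.3 to 76.5 CPM) but above every preMegE and MkP library (at most 1.69 and 4.14 CPM). Cd34, at 900 CPM, lay above them (340 to 800 CPM). In preMegE KI 1, MkP KI 5 and MkP KI 6, genes shorter than 1500 bases took 56.4%, 55.0% and 57.4% of all counts, against 16.7% to 30.6% in the 20 libraries with a TMM factor of at least 0.8. That length was chosen after the values were seen. Results that rest on these 4 libraries are given with and without them. Leaving them out makes MkP KI 4 the only MkP KI library.

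**Figure D1:**
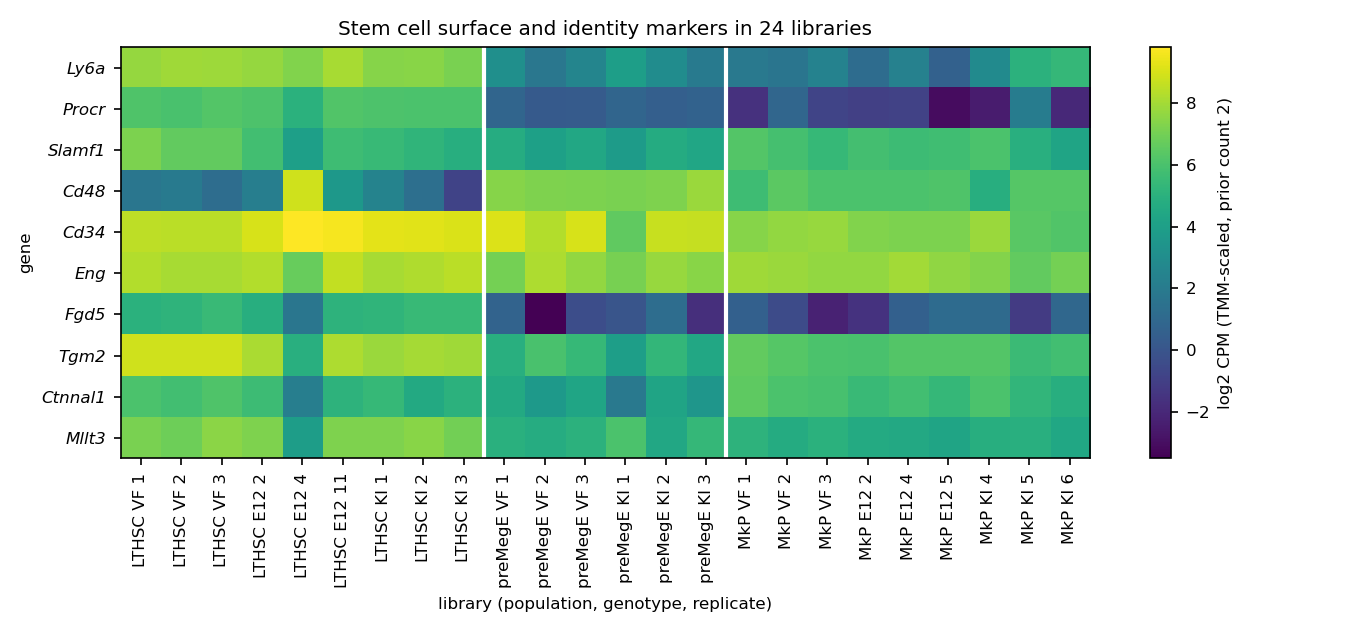
The heat map shows log2 CPM (TMM-scaled, prior count 2) of the 10 genes (rows) in 24 libraries (columns), with white lines between LTHSC, preMegE and MkP. The library labelled LTHSC E12 4 differs from the other LTHSC columns, with 466 CPM of Cd48 and 3.15 CPM of Fgd5.

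Ly6a and Procr were the surface genes that fell furthest outside the stem cell gate. Ly6a ranged from 142 to 267 CPM (median 206) in 9 LTHSC libraries, from 3.31 to 15.6 CPM (median 6.89) in 6 preMegE libraries and from 1.46 to 41.6 CPM (median 5.06) in 9 MkP libraries. Procr ranged from 32.2 to 76.5 CPM (median 67.7) in LTHSC, from 1.10 to 1.69 CPM in preMegE and from 0.0331 to 4.14 CPM in MkP. For each gene LTHSC lay above both progenitor populations without overlap, while preMegE and MkP overlapped. By edgeR's quasi-likelihood test over all libraries with Benjamini-Hochberg adjustment, 7 of the 10 genes fell and 1 rose in MkP against LTHSC, where 34.7% of all tested genes passed (17.7% fell, 17.0% rose). In preMegE against LTHSC 7 fell and 1 rose, where 40.7% of all genes passed (19.4% fell, 21.3% rose). The median log2 fold change of the 10 was -1.89 in MkP and -1.84 in preMegE, against 0.01 and -0.02 over all genes. In these bulk samples, fewer cells with a transcript and less of it per cell cannot be told apart.

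Ly6a fell by 4.86 ± 0.35 (SE) on the log2 scale in MkP against LTHSC (edgeR adjusted p 1.61e-09) and fell by 4.73 ± 0.43 in preMegE against LTHSC (adjusted p 1.19e-07). In preMegE against LTHSC 8 members, all but Cd34 and Eng, had no overlap over VF and KI, against 26.0% of all genes in either direction. Procr fell by 6.65 ± 0.56 in MkP (adjusted p 1.37e-08) and fell by 5.62 ± 0.64 in preMegE (adjusted p 2.04e-06). The MkP value of Procr rested in part on MkP KI 5, which held 4.14 CPM while MkP KI 4 and 6 held 0.0901 and 0.165 CPM, and without it the log2 fold change was -7.71. Without the 4 libraries of low TMM factor, Ly6a had a log2 fold change of -5.61 and Procr of -7.97 in MkP against LTHSC. Of 7 other Ly6 genes tested, 1 rose and 0 fell in MkP against LTHSC, and 3 rose and 0 fell in preMegE against LTHSC. The risers in preMegE were Ly6d, a marker of early lymphoid cells, with a log2 fold change of 8.23 (adjusted p 0.000394), Ly6c2 with 2.72 (adjusted p 0.00727), and Ly6k (adjusted p 0.0152), which was at 0 in all LTHSC KI libraries, so that no fold is given.

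Cd48 and Slamf1 moved in opposite directions in preMegE against LTHSC. Cd48 ranged from 0.480 to 466 CPM (median 3.72) in LTHSC, from 141 to 224 CPM (median 152) in preMegE and from 28.6 to 88.4 CPM (median 66.1) in MkP. It rose by a log2 fold change of 5.81 ± 0.82 in preMegE against LTHSC (adjusted p 2.04e-05), a comparison over VF and KI only. In MkP against LTHSC it rose by 2.57 ± 0.58 (adjusted p 0.00178). That value includes LTHSC E12 4. Without this library it was 4.01 (adjusted p 5.08e-08), and without all 4 libraries of low TMM factor 3.60 ± 0.32. Slamf1 ranged from 16.1 to 143 CPM (median 51.5) in LTHSC, from 13.9 to 26.3 CPM (median 21.7) in preMegE and from 19.3 to 75.5 CPM (median 53.8) in MkP. It fell by 1.62 ± 0.30 in preMegE against LTHSC (adjusted p 0.000368), and in MkP against LTHSC it did not pass (adjusted p 0.645). Against preMegE, Slamf1 rose by 1.17 ± 0.30 in MkP (adjusted p 0.0178). This call was lost when MkP VF 1 (adjusted p 0.0572) or preMegE VF 2 (adjusted p 0.0584) was left out.

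Cd48 and Slamf1 lie 61.9 kb apart on chromosome 1 (GRCm38.p6, Cd48 at chr1:171681245-171705258 and Slamf1 at chr1:171767131-171801184), next to Slamf7 and Cd84, so neighbouring genes of one family had different orders across the populations. Of the 7 other SLAM family genes tested, 3 rose and 2 fell in preMegE against LTHSC, and 0 rose and 2 fell in MkP against LTHSC. Slamf6 (log2 fold change 5.07, adjusted p 0.000711), Slamf7 (adjusted p 0.00109) and Cd244, a receptor for CD48 (1.79, adjusted p 0.00463), rose in preMegE, while Cd84 fell there (-1.15, adjusted p 4.64e-05). Slamf7 averaged 3.15 ± 1.06 CPM in VF and 11.3 ± 5.96 CPM in KI preMegE, and was at 0 in all LTHSC KI libraries, so that no fold is given. Ly9 fell in MkP against LTHSC (-2.55, adjusted p 9.83e-07). All 12 tested lymphoid marker genes also rose in preMegE against LTHSC, among them the B-cell gene Cd79a with a log2 fold change of 8.44 (adjusted p 9.63e-07). Their part in the SLAM values was not tested.

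The 250 bases upstream of the start that the RefSeq promoter table gives for Slamf1, Cd48 and Cd34 are shown because these 3 genes define the CD150, CD48 and CD34 gates, had different orders across the populations, and were the members whose windows held a searched motif. Motifs were chosen after the values were seen and were read on both strands: AGATAA with one flank and GATAAG with the other for GATA factors (a run can hold both), TTCNNNGAA for STAT factors, CAGGAAG for ETS factors and TGTGGT for RUNX factors. RefSeq promoters (GRCm38.p6) were held for 8 of the 10 genes, in 9 windows. The Cd48 window lies inside the gene interval given above, because the promoter table places its start downstream of the first base of that interval. Capitals mark the match, which in Cd34 is the reverse complement of CAGGAAG.
Slamf1, chr1:171766882-171767131, plus strand: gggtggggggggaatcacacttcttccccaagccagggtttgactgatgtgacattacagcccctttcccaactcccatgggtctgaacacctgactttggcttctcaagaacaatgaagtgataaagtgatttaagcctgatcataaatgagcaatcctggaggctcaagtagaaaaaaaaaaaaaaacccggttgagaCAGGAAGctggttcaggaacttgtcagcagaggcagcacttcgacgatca
Cd48, chr1:171681742-171681991, plus strand: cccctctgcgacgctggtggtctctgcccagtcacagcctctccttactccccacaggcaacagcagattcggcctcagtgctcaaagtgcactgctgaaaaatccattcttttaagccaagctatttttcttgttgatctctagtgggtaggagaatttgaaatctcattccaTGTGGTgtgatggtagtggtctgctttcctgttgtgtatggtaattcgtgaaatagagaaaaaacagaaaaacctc
Cd34, chr1:194938571-194938820, plus strand: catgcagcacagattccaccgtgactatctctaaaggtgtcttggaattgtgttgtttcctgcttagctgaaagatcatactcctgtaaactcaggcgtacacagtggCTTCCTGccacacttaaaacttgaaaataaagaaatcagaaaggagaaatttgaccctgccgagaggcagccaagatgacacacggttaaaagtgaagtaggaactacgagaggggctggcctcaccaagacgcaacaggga
CAGGAAG was present in 2 of the 9 windows and in 10.8% of 32851 RefSeq windows of this length, and TGTGGT in 1 of the 9 and in 14% of all. The remaining motifs were in 0 of the 9: AGATAA was in 9.99% of all windows, GATAAG in 6.55% and TTCNNNGAA in 7.02%. A match is a run of letters and not a shown binding site.

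Cd34 transcript was abundant in the stem cell gate, although its protein is the antigen that such gates commonly require to be low. It ranged from 340 to 900 CPM (median 526) in LTHSC, from 95.8 to 550 CPM (median 407) in preMegE and from 74.3 to 227 CPM (median 155) in MkP. Cd34 fell by 1.78 ± 0.26 in MkP against LTHSC (adjusted p 2.54e-05), without overlap. In that comparison Ly6a, Procr, Cd34 and Fgd5 had no overlap, 4 lower and 0 higher, against 4.73% of all genes (3.26% lower, 1.47% higher). This count includes LTHSC E12 4. In the other 8 LTHSC libraries Tgm2 (223 to 468 CPM), Mllt3 (119 to 180 CPM) and Eng (267 to 381 CPM) lay above every MkP library. In the same 8 libraries Cd48 (0.480 to 11.9 CPM) lay below every MkP library. The share of all genes without LTHSC E12 4 was not counted. In preMegE against LTHSC Cd34 did not pass (adjusted p 0.502). It fell by 1.23 ± 0.32 in MkP against preMegE (adjusted p 0.0184). This call was lost without preMegE KI 2 (adjusted p 0.0530), preMegE KI 3 (0.0507) or MkP VF 1 (0.0566). In MkP against preMegE 2 members rose and 1 fell, where 7.54% of all genes passed (3.27% rose, 4.26% fell).

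Eng had the flattest profile of the surface genes. It ranged from 107 to 381 CPM (median 304) in LTHSC, from 132 to 286 CPM (median 188) in preMegE and from 98.0 to 254 CPM (median 199) in MkP. The 3 populations overlapped, but LTHSC and MkP did so only through LTHSC E12 4 (107 CPM). The other 8 LTHSC libraries held 267 to 381 CPM. Eng fell by 0.63 ± 0.21 in MkP against LTHSC (adjusted p 0.0215), a call that was lost without LTHSC E12 11 (adjusted p 0.0594). Without the 4 libraries of low TMM factor its log2 fold change in MkP against LTHSC was -0.70. In preMegE against LTHSC the log2 fold change was -0.63 ± 0.25 (adjusted p 0.0516), and without the 4 libraries of low TMM factor it fell there by 0.60 ± 0.16 (adjusted p 0.00366). Eng is also a gene of endothelium. The 15 other endothelial genes summed to 109 to 528 CPM in LTHSC, 116 to 241 CPM in preMegE and 243 to 814 CPM in MkP. Among them Sox7 was at 0 in all 24 libraries. The highest values were 0.557 CPM for Cdh5, 0.219 CPM for Lyve1, 0.880 CPM for Ptprb and 1.93 CPM for Flt1. Tie1 reached 163 CPM in LTHSC KI and Vwf 587 CPM in MkP VF. Of 10 endothelial genes tested, 3 fell (Emcn, Sox18 and Cldn5) and 1 rose (Vwf) in MkP against LTHSC. In preMegE against LTHSC 3 fell (Emcn, Tie1 and Sox18) and 1 rose (Plvap). The log2 fold change of Emcn was -3.53 in MkP (adjusted p 2.45e-08) and -3.93 in preMegE (adjusted p 3.40e-07). Of all genes, 17.7% fell in MkP and 19.4% in preMegE. The part of these genes in the Eng values was not tested.

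Of Fgd5, Tgm2, Ctnnal1 and Mllt3, Fgd5 came closest to absence outside LTHSC. It ranged from 3.15 to 46.6 CPM (median 36.2) in LTHSC, from 0 to 2.31 CPM in preMegE and from 0.127 to 2.12 CPM in MkP. The preMegE VF 2 library had 0 counts, which allows up to 0.133 CPM. Fgd5 fell by 5.41 ± 0.78 in preMegE against LTHSC (adjusted p 2.81e-05) and fell by 4.87 ± 0.62 in MkP against LTHSC (adjusted p 4.38e-06). Fgd4, of the same exchange factor family, also fell in MkP (log2 fold change -2.76, adjusted p 7.98e-06) and in preMegE (-2.01, adjusted p 0.00123) against LTHSC.

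Tgm2 and Mllt3 were reduced in the progenitors but remained measurable. Tgm2 ranged from 29.4 to 468 CPM (median 279) in LTHSC, from 15.6 to 63.7 CPM in preMegE and from 48.3 to 97.7 CPM in MkP. It fell by 3.29 ± 0.38 in preMegE (adjusted p 2.49e-06) and fell by 1.99 ± 0.30 in MkP (adjusted p 2.68e-05) against LTHSC. Its relative F13a1, the coagulation transglutaminase of platelets and monocytes, rose instead, with log2 fold changes of 3.50 in MkP (adjusted p 7.34e-07) and 4.72 in preMegE (adjusted p 1.10e-06) against LTHSC. Mllt3 ranged from 15.2 to 180 CPM (median 150) in LTHSC, from 22.6 to 65.7 CPM in preMegE and from 19.01 to 34.6 CPM in MkP. It fell by 2.05 ± 0.35 in preMegE (adjusted p 0.000176) and fell by 2.34 ± 0.29 in MkP (adjusted p 3.29e-06) against LTHSC. Mllt1 (ENL), its paralog in the elongation complex, rose in MkP against LTHSC (log2 fold change 1.11, adjusted p 0.000160).

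Ctnnal1 was higher in LTHSC and in MkP than in preMegE. It ranged from 4.43 to 70.1 CPM (median 43.0) in LTHSC, from 3.63 to 23.96 CPM (median 16.3) in preMegE and from 28.3 to 91.4 CPM (median 54.4) in MkP. It fell by 1.64 ± 0.41 in preMegE against LTHSC (adjusted p 0.00329) and rose by 1.93 ± 0.41 in MkP against preMegE (adjusted p 0.00471). Ctnnal1 (higher) and Cd48 (lower) had no overlap between MkP and preMegE, against 3.45% of all genes (1.34% higher, 2.10% lower). In MkP against LTHSC it did not pass (adjusted p 0.324). Ctnnal1 and Slamf1 were thus the 2 members that rose in MkP against preMegE and did not pass in MkP against LTHSC. Leaving out the 4 libraries of low TMM factor leaves a single MkP KI library. The log2 fold change in MkP against preMegE was then 1.10 for Tgm2, -1.93 for Cd48 and -2.25 for Procr. In the same fit Slamf1 had 1.48, Ctnnal1 2.03 and Cd34 -1.01.

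**Figure D2:**
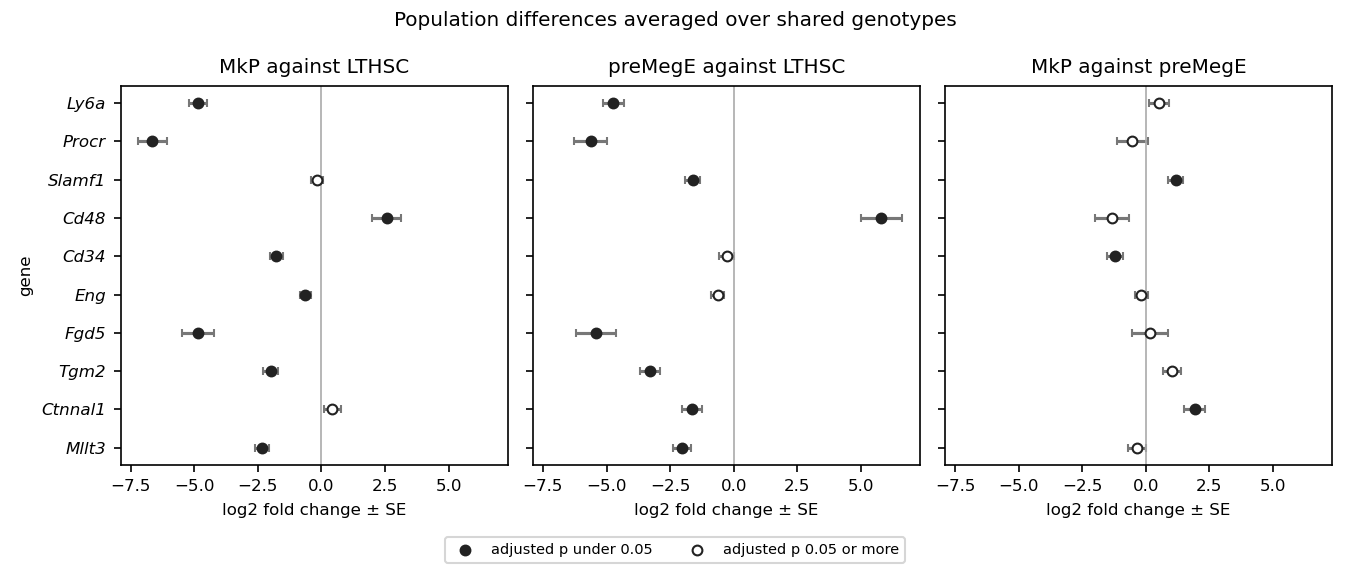
Each panel gives the log2 fold change ± SE (horizontal axis) of the 10 genes (vertical axis) for MkP against LTHSC, preMegE against LTHSC and MkP against preMegE, with filled points for an edgeR adjusted p under 0.05. Cd48 is the gene to the right of 0 with a filled point in both comparisons with LTHSC, and Ctnnal1 and Slamf1 are filled to the right of 0 in MkP against preMegE.

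A longer list of other stem cell genes fell mostly with the members. Of 33 tested, 26 fell and 0 rose in preMegE against LTHSC, with a median log2 fold change of -2.31 against -0.02 over all genes. In MkP against LTHSC 19 fell and 2 rose, with a median of -0.98. The falls in MkP were led by Sult1a1, a sulfotransferase (log2 fold change -5.97, adjusted p 8.16e-09), Hlf, a transcription factor of stem cells (-3.08, adjusted p 2.58e-08), and Robo4, a surface receptor (-3.33, adjusted p 2.96e-08). Between the progenitors 13 of the 33 rose and 0 fell in MkP against preMegE, with a median of 1.25, led by Trim47 (1.42), Esam (1.32) and Clec1a (2.97). Of 8 further gate antigens, the megakaryocyte integrin Itga2b (CD41) rose in MkP against LTHSC (3.00, adjusted p 2.62e-09), and Flt3, the receptor of multipotent progenitors, fell (-2.99, adjusted p 1.79e-06). Of the 33 tested partners and paralogs of the members, 6 rose and 7 fell in MkP, where 17.0% of all genes rose and 17.7% fell. In preMegE against LTHSC 4 of the 33 rose and 10 fell, where 21.3% of all genes rose and 19.4% fell.

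Levels of different genes can be compared only per length. The median CPM per kb in LTHSC ran from Ly6a (206) and Cd34 (201) through Eng (85.2), Tgm2 (78.6), Procr (45.0), Mllt3 (24.1), Slamf1 (19.2) and Ctnnal1 (11.7) to Fgd5 (6.43) and Cd48 (3.26). In preMegE Cd34 (155) and Cd48 (133) stood highest, and in MkP Cd34 (59.3), Cd48 (57.9) and Eng (55.6). Cd48 was therefore last of the 10 in LTHSC by CPM per kb and next to the highest in both progenitor populations.

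Genotype was compared within each population, for the genes by which the cells are gated and recognised. VF differs from both KI and E12 in Cre driver as well as in Jak2 allele, and these cannot be told apart. In LTHSC, VF against KI, 0 of 10 members passed the edgeR test, where 0.0919% of all genes passed. At an unadjusted p under 0.05 there were 2 members, with 8.11% of all genes, and DESeq2 called 1, with 1.77% of all genes. Groups nevertheless did not overlap for 5 members, 4 higher and 1 lower in VF, where 30.7% of all genes did not overlap (17.2% higher, 13.5% lower). All LTHSC libraries entered that fit, and the spread of LTHSC E12 4 therefore counted. Without it 3 members passed, Slamf1, Tgm2 and Cd34, where 2.03% of all genes passed. With VF and KI alone in the fit 5 passed, adding Ly6a and Ctnnal1, where 6.84% of all genes passed.

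Slamf1 had 143, 97.0 and 98.5 CPM in VF, 55.2, 16.1 and 51.5 CPM in E12, and 43.9, 37.3 and 28.5 CPM in KI. Each VF library lay above every E12 and KI library. The log2 fold change against KI was 1.597 ± 0.395 (adjusted p 0.243), with an adjusted p of 0.00907 by DESeq2 and 0.0123 by edgeR without LTHSC E12 4. Against E12 it was 1.46 ± 0.39 (adjusted p 0.406), with 0.0349 by DESeq2. Both values include LTHSC E12 4, and without it the edgeR value against E12 was 1.10 (adjusted p 0.177).

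Tgm2 had 468, 462 and 454 CPM in VF, 279, 29.4 and 289 CPM in E12, and 223, 257 and 243 CPM in KI. The VF libraries were again above all others. Against KI the log2 fold change was 0.90 ± 0.58 (adjusted p 0.777), and without LTHSC E12 4 the same value had an SE of 0.10 and an adjusted p of 0.00646. Ctnnal1 had 66.3, 55.4 and 70.1 CPM in VF, 49.7, 4.43 and 33.9 CPM in E12, and 43.0, 24.04 and 33.6 CPM in KI, without overlap between VF and KI. Its log2 fold change against KI was 0.90 ± 0.60 (adjusted p 0.793), with 0.0732 without LTHSC E12 4 and 0.0346 with VF and KI alone.

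Cd34 was the member that stood lower. It had 365, 348 and 340 CPM in VF, 518, 900 and 800 CPM in E12, and 616, 600 and 526 CPM in KI. Each VF library was below all E12 and KI libraries. Against KI the log2 fold change was -0.76 ± 0.25 (adjusted p 0.409), with 0.0388 without LTHSC E12 4. Against E12 it was -1.11 ± 0.25 (adjusted p 0.297), with 0.00453 by DESeq2. Both values include LTHSC E12 4, and without it the edgeR value against E12 was -0.89 (adjusted p 0.119). Ly6a had 208, 241 and 234 CPM in VF and 165, 172 and 142 CPM in KI, without overlap. The E12 libraries held 206, 156 and 267 CPM and overlapped both. The log2 fold change of Ly6a against KI was 0.48 ± 0.22 (adjusted p 0.621), with 0.0393 with VF and KI alone in the fit.

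The other 5 members overlapped between VF and KI in LTHSC. Procr averaged 70.3 ± 6.64 CPM in VF and 66.7 ± 2.05 CPM in KI (SD, n = 3 each). Fgd5 averaged 38.4 ± 7.31 CPM in VF and 41.8 ± 4.16 CPM in KI. Mllt3 averaged 146 ± 31.4 CPM in VF and 151 ± 26.1 CPM in KI. Eng averaged 284 ± 24.7 CPM in VF and 304 ± 37.1 CPM in KI. Cd48 was low in both, at 3.05 ± 0.732 CPM in VF and 2.77 ± 2.46 CPM in KI. The median log2 fold change of the 10 in VF against KI LTHSC was 0.09. Of the 33 other stem cell genes tested, 0 passed in either direction in this comparison, with a median of -0.11.

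Other genes moved with these groups. Of 22 immediate-early genes, the transcripts that cells raise within minutes of handling or stimulation, 7 fell in VF against KI LTHSC, and their summed level was 914 to 1177 CPM in VF and 6617 to 11550 CPM in KI, without overlap. Neutrophil and monocyte genes summed to 846 to 1029 CPM in VF and 1346 to 3307 CPM in KI, with 0 of 17 passing the test. Endothelial genes summed to 404 to 528 CPM in VF and 214 to 325 CPM in KI, with 0 of 10 tested passing. Of 19 megakaryocyte and platelet genes tested 1 rose and 0 fell, with a median log2 fold change of 0.88, and the list summed to 2736 to 3124 CPM in VF and 2324 to 2668 CPM in KI, without overlap. The gene that passed was Pf4, platelet factor (log2 fold change 2.59, adjusted p 0.0483), and Itga2b had 165 to 289 CPM in VF and 64.6 to 92.0 CPM in KI. Of 18 erythroid genes 1 rose, the water channel Aqp1 (2.30, adjusted p 0.0304), and the list summed to 1907 to 1937 CPM in VF and 1954 to 2406 CPM in KI. The part of these lists in the member values was not tested.

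**Figure D3:**
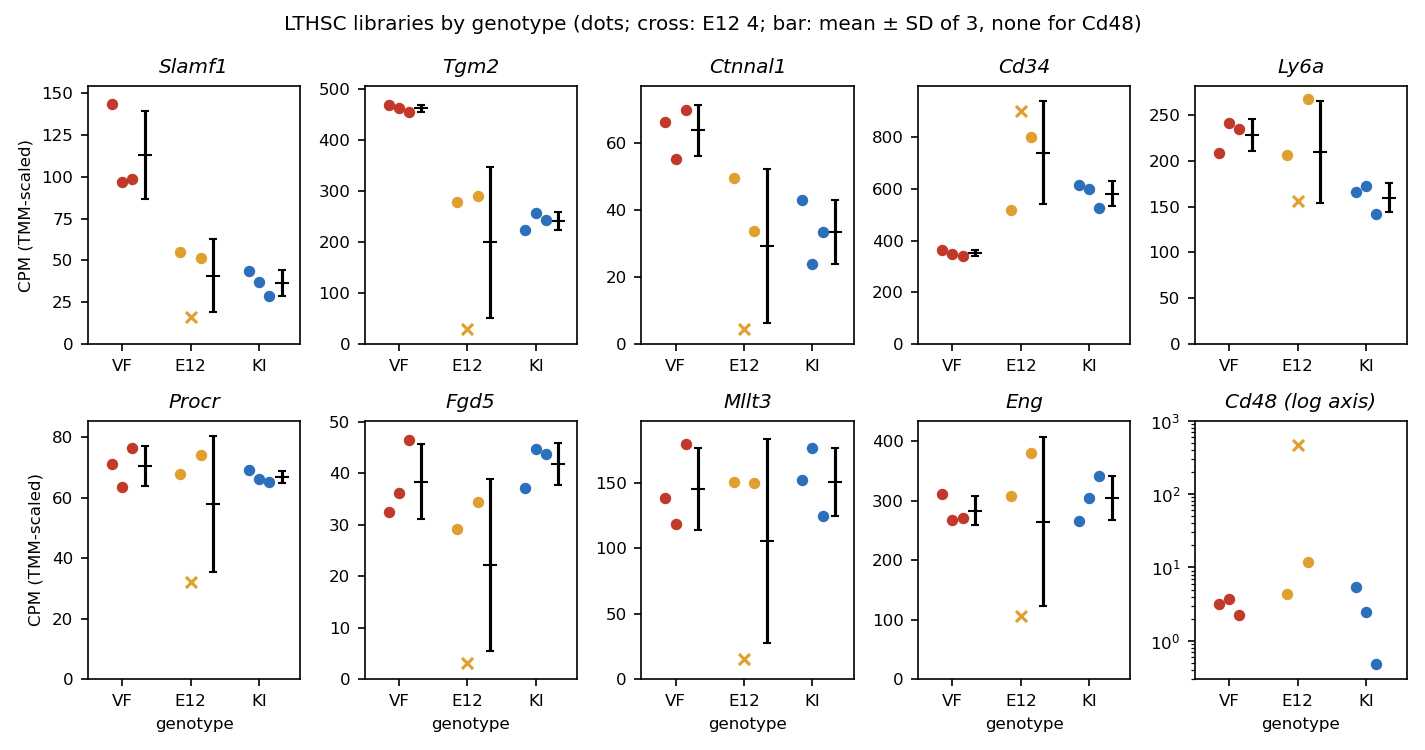
Each panel shows 1 gene in the LTHSC libraries, with CPM (TMM-scaled) on the vertical axis and VF, E12 and KI along the horizontal axis, points for libraries, a cross for E12 4 and bars for the mean ± SD of 3; the Cd48 panel has a log axis and no bars. In VF all 3 points of Slamf1 and Tgm2 are above, and those of Cd34 below, every E12 and KI point, and E12 4 is the lowest point of Fgd5, Mllt3, Eng, Procr, Tgm2, Slamf1 and Ctnnal1.

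In E12 against KI LTHSC, 0 of 10 members passed, where 0.0424% of all genes passed, with 1 at an unadjusted p under 0.05 (13.8% of all genes), 0 by DESeq2 (3.09%) and 1 member without overlap, which was lower (16.2% of all genes, 8.63% higher and 7.55% lower). That member was Fgd5, with 29.1, 3.15 and 34.4 CPM in E12 and 37.1, 44.7 and 43.8 CPM in KI. Cd48 had 4.40, 466 and 11.9 CPM in E12 and 5.37, 2.45 and 0.480 CPM in KI. Its log2 fold change of 5.97 ± 1.63 (adjusted p 0.235) includes LTHSC E12 4, and without that library it was 1.52 (adjusted p 0.420). The 18 erythroid genes summed to 2776 to 3820 CPM in E12 and 1954 to 2406 CPM in KI, without overlap, and their part in the member values was not tested. In VF against E12 LTHSC 0 members passed by edgeR, where 0.0353% of all genes passed, with 3 at an unadjusted p under 0.05 (11.0% of all genes) and 2 by DESeq2, Slamf1 and Cd34 (1.17% of all genes). Groups did not overlap for 5 members (3 higher, 2 lower), against 21.3% of all genes (11.3% higher, 10.1% lower).

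In preMegE, VF against KI, 0 of 10 members passed the edgeR test, where 0.0151% of all genes passed. At an unadjusted p under 0.05 there were also 0, and DESeq2 and limma voom called 0. All 10 overlapped, where 12.3% of all genes did not (6.92% higher, 5.34% lower). Slamf1 averaged 21.9 ± 4.88 CPM in VF and 20.1 ± 5.96 CPM in KI. Cd48 averaged 154 ± 13.3 CPM in VF and 172 ± 44.8 CPM in KI. Cd34 averaged 457 ± 128 CPM in VF and 304 ± 180 CPM in KI, where preMegE KI 1 had 95.8 CPM and preMegE KI 2 and 3 had 416 and 399 CPM. Tgm2 averaged 45.1 ± 17.2 CPM in VF and 25.7 ± 12.6 CPM in KI. Ly6a averaged 5.94 ± 2.65 CPM in VF and 9.08 ± 5.99 CPM in KI, with 15.6 CPM in preMegE KI 1. The 17 neutrophil and monocyte genes summed to 9181 to 20490 CPM in VF and 3125 to 4613 CPM in KI, and their part in the member values was not tested.

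In MkP, 0 of 10 members passed by edgeR in VF against KI and 0 in E12 against KI, where 0% of all genes passed in either. Each comparison had 2 members at an unadjusted p under 0.05, where 26.9% of all genes in VF and 29.0% in E12 against KI lay under it, and DESeq2 called the same 2, Ly6a and Eng, where it called 18.9% of all genes in VF and 21.1% in E12 against KI. These 2 members also had no overlap in both comparisons, Eng higher and Ly6a lower, against 20.1% of all genes in VF (12.5% higher, 7.58% lower) and 22.8% in E12 against KI (14.8% higher, 7.99% lower). Ly6a had 3.55, 3.11 and 5.19 CPM in VF, 2.17, 5.06 and 1.46 CPM in E12, and 7.15, 33.7 and 41.6 CPM in KI. The KI libraries were all above the others, and MkP KI 5 and 6 were far above MkP KI 4. The log2 fold change was -2.86 ± 0.70 in VF (adjusted p 0.0755) and -3.33 ± 0.72 in E12 (adjusted p 0.0616) against KI. Without MkP KI 5 and 6, which leaves a single KI library, the values were -0.86 (adjusted p 0.685) in VF and -1.32 (adjusted p 0.478) in E12.

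Eng had 240, 223 and 200 CPM in VF, 199, 254 and 194 CPM in E12, and 159, 98.0 and 130 CPM in KI. The KI libraries were the 3 lowest, with MkP KI 4 the nearest to VF and E12. Its log2 fold change was 0.73 ± 0.26 in VF (adjusted p 0.115) and 0.68 ± 0.26 in E12 (adjusted p 0.122) against KI. Without MkP KI 5 and 6 these were 0.46 (adjusted p 0.413) and 0.42 (adjusted p 0.441). The 15 endothelial genes, without Eng, summed to 516 to 814 CPM in VF, 494 to 617 CPM in E12 and 243 to 350 CPM in KI MkP. Vwf, which megakaryocytes also express, made up much of this sum, with 324 to 587 CPM in VF, 319 to 405 CPM in E12 and 173 to 212 CPM in KI. Among the other listed genes Cdh5, Lyve1, Ptprb and Sox7 were at 0 in all 9 MkP libraries and Flt1 reached 0.150 CPM. The part of this list in the Eng values was not tested.

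The 3 shortest members stood apart from the 7 longer ones in the mean of MkP KI 5 and 6 against MkP KI 4. Ly6a (1002 bases), Cd48 (1142 bases) and Procr (1504 bases), the 3 shortest, were higher in the mean of MkP KI 5 and 6 than in MkP KI 4, with log2 ratios of 2.32, 1.46 and 2.17 (0.5 CPM added). The Procr ratio rests on MkP KI 5 (2.98), and in MkP KI 6 alone it was 0.17. The 7 members of 2621 bases or more were lower there, with log2 ratios of -0.17 (Mllt3) to -1.50 (Cd34). Among these 7 the ratio did not fall with length: Cd34 (2621 bases) was the lowest and Mllt3 (6225 bases) the nearest to 0. In MkP KI 5 alone Mllt3 had a log2 ratio of 0.05. Genes shorter than 1500 bases took 55.0% and 57.4% of counts in MkP KI 5 and 6, and 17.8% to 21.9% in the other 7 MkP libraries. The part of this in the VF and E12 differences was not tested. Leaving out MkP KI 4 instead, 6 members passed in VF against KI and 4 in E12 against KI, where 48.9% and 49.8% of all genes passed.

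**Figure D4:**
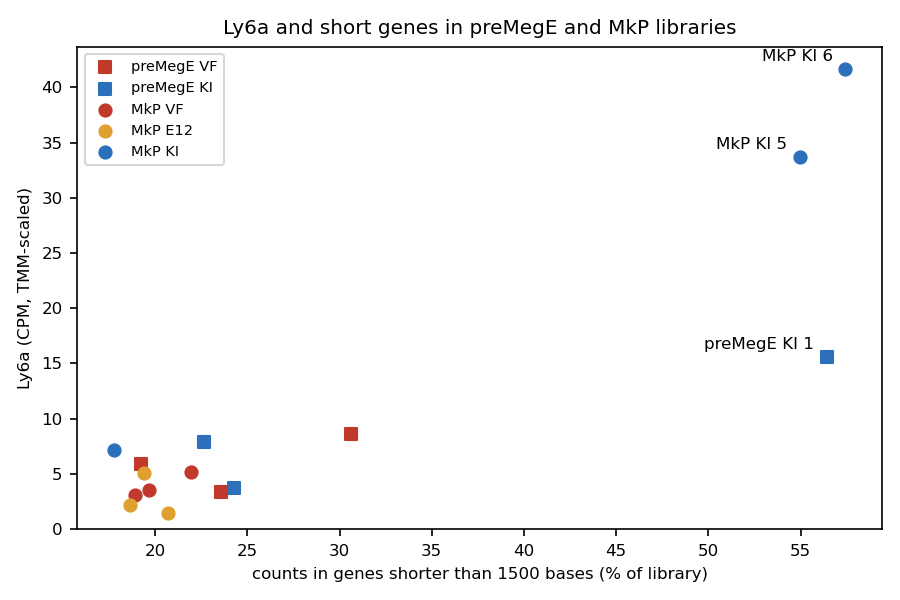
The plot gives Ly6a (CPM, vertical axis) against the share of counts in genes shorter than 1500 bases (% of library, horizontal axis) for preMegE (squares) and MkP (circles) libraries, coloured by VF, E12 and KI. The 3 named KI libraries, at 55.0% to 57.4%, hold the highest Ly6a values, 15.6, 33.7 and 41.6 CPM.

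In VF against E12 MkP, 0 of 10 members passed, where 0% of all genes passed, with 0 at an unadjusted p under 0.05 and 0 by DESeq2. Groups did not overlap for 3 members, all higher in VF, against 14.6% of all genes (6.73% higher, 7.90% lower). Ctnnal1 averaged 72.5 ± 16.4 CPM in VF and 47.4 ± 6.51 CPM in E12. Mllt3 averaged 30.7 ± 4.43 CPM in VF and 22.2 ± 2.82 CPM in E12. Cd34 averaged 197 ± 25.1 CPM in VF and 148 ± 6.86 CPM in E12.

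Whether a genotype difference itself differed between populations was tested as a difference of differences. For VF against KI, 0 members passed in MkP minus LTHSC, where 0.0134% of all genes passed, and 0 in preMegE minus LTHSC, where 0% passed. For E12 against KI and VF against E12 in MkP minus LTHSC, 0 members passed, where 0.0334% and 0% of all genes passed. At an unadjusted p under 0.05 there were 3 members for VF against E12 and 2 in each of the others. Of all genes 3.71% lay under it for VF against E12, 24.3% for E12 against KI, and 14.4% (MkP) and 4.43% (preMegE) for VF against KI. DESeq2 called 1 member for E12 against KI, where it called 13.7% of all genes, and 0 in the others. Slamf1 had a log2 difference of -1.53 ± 0.60 for VF against KI in preMegE minus LTHSC (adjusted p 0.906). Without the 4 libraries of low TMM factor it was -1.71 (adjusted p 0.0460), where 0.207% of all genes passed: the VF excess of Slamf1 in LTHSC was then larger than in preMegE. Cd48 in E12 against KI, MkP minus LTHSC, had -5.76 ± 1.43 (adjusted p 0.0568), and -1.42 (adjusted p 0.347) without LTHSC E12 4.

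The genes whose profile over the 8 groups was most like a member's were found by the root mean square difference of centred mean log2 CPM among 9397 genes. The nearest was Cldnd1 to Eng (0.04), Ndrg2 to Mllt3 (0.23), Trf to Cd34 (0.24), Mycn to Ctnnal1 (0.27), Neu3 to Slamf1 (0.31), Tlr4 to Tgm2 (0.33) and Gna14 to Cd48 (0.47). Procr was nearest to Myof (0.51) and Fgd5 to Trib3 (0.68). Sult1a1 was among the 3 nearest genes of both Procr and Fgd5, and Trib3 of both Ly6a and Fgd5. Among the members, Ctnnal1 and Slamf1 were the closest pair (0.50), and Cd48 and Procr the farthest (5.16). These values describe 8 group means, include LTHSC E12 4 and carry no test.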

How the data were processed

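The deposited table holds raw counts per gene as the authors made them, and its gene length column is in bases. The authors aligned and counted with STAR 2.7.0c, Subread 1.6.4 and featureCounts on mm10, per the submitters' processing notes; strand setting and multiply mapped reads are not given in the sources used here. The 6 columns named MEP were taken as preMegE because their genotypes and numbers match; 0 other value columns lacked a sample. The 16 rows without a symbol were left out. None of 276 pairs of libraries was a copy. Smart-seq2 reads carry no molecular identifiers.

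The main test was the 2-sided quasi-likelihood F test of edgeR 4.0.16 (R 4.3.3), robust, after filterByExpr and TMM scaling, with Benjamini-Hochberg adjustment over all tested genes and a threshold of 0.05. The SE is the log2 fold change divided by the square root of F. Genotypes were fitted within a population; populations (averaged over shared genotypes) and differences of differences over all 24 libraries. Non-overlap was counted over the groups compared. DESeq2 1.42.0 and limma 3.58.1 (voom) were alternatives. The code was tested on simulated data. All 10 members are named; of each list of related genes, at most 3 a direction of smallest adjusted p; and the nearest genes by profile, with a mean of at least 10 CPM (that of Ly6a is not reported here). Members and lists were chosen with earlier results of these data known.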

Additional observations from a re-analysis of the deposited data

Results flagged for a closer look

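Ly6a passed the test in neither LTHSC nor MkP, but its libraries were ordered in opposite ways by genotype. It was higher in every VF than in every KI library of LTHSC (208 to 241 CPM in VF, 142 to 172 CPM in KI) and lower in every VF than in every KI library of MkP (3.11 to 5.19 CPM in VF, 7.15 to 41.6 CPM in KI). The difference of differences was -3.26 on the log2 scale (edgeR adjusted p 0.239). MkP KI 5 and 6 hold the 2 highest MkP values. Without the 4 libraries of low TMM factor, which leaves a single MkP KI library, the difference of differences was -1.37.

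Cd34 was lower in every VF than in every E12 library of LTHSC (340 to 365 CPM in VF, 518 to 900 CPM in E12) and higher in every VF than in every E12 library of MkP (170 to 220 CPM in VF, 143 to 155 CPM in E12). The difference of differences was 1.497 on the log2 scale (edgeR adjusted p 0.993), and 1.33 (adjusted p 0.309) without the 4 libraries of low TMM factor.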

How the results depend on the processing

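Results were recomputed with DESeq2, limma voom, RLE scaling, unfiltered genes, fits of the 2 groups compared, a replicate block, leaving out each library, and, chosen after seeing the data, leaving out the 4 libraries of low TMM factor. Of 140 member and comparison pairs, 19 passed as reported, of which 3 were lost in some setting and 0 changed sign; 29 passed in an alternative alone. Of the 92 that passed nowhere, 46 changed sign somewhere; apart from the Cd34 difference of differences between VF and E12, they are given without a fold change or are not printed. RLE scaling and DESeq2 moved the median of all genes by -0.11 to 0.04. Depth limits Fgd5 and Procr most, which lie near 1 CPM in the progenitors.

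The count of members that passed in VF against KI LTHSC was 0, but 1 with DESeq2, 3 without low TMM factors, 5 with only the 2 groups and 4 with the replicate block. In VF against E12 LTHSC it was 0, and 2 with DESeq2. In MkP it was 0, and 2 with DESeq2 for VF and for E12 against KI, and 1 for E12 against KI without the filter (Ly6a). In MkP against preMegE it was 3, and it changed without low TMM factors, a setting that leaves a single MkP KI library. For preMegE minus LTHSC (VF against KI) it was 0, and 1 without low TMM factors, and for E12 against KI in MkP minus LTHSC 0, and 1 with DESeq2. Leaving out single libraries gave 0 to 1 for E12 against KI and 0 to 2 for VF against E12 in LTHSC, the highest without LTHSC E12 2, when Cd48 passed (adjusted p 0.0448 and 0.0479). It gave 0 to 6 for VF and 0 to 4 for E12 against KI in MkP, the highest without MkP KI 4. It gave 7 to 8 for MkP against LTHSC, 8 to 9 for preMegE against LTHSC and 1 to 4 for MkP against preMegE, the lowest without MkP VF 1. For MkP minus LTHSC it gave 0 to 2 for VF against KI (2 without MkP KI 4), 0 to 2 for E12 against KI (2 without LTHSC E12 2, LTHSC E12 11 or MkP KI 4) and 0 to 1 for VF against E12 (1 without LTHSC E12 2). DESeq2 gave no adjusted p for Cd48 in MkP or preMegE against LTHSC. Shares of all genes that passed are given above for some of these settings only. Where no share is given, as for most fits that left out single libraries, the count of members cannot be set against all genes.

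Signs turned in E12 against KI in MkP for Cd34 without low TMM factors (-0.64) and with the replicate block (-0.022), with a range of -0.11 to 0.81 when single libraries were left out (-0.06 without MkP KI 5, -0.11 without MkP KI 6, 0.81 without MkP KI 4), and for Slamf1 without low TMM factors (-0.31). In VF against KI in MkP, without low TMM factors, Cd34 had -0.21 and Slamf1 -0.16. The cause was not tested.

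The numbers were not taken as pairs, because the labels do not say that they pair libraries. Same-numbered libraries correlated at -0.06 to 0.25. Differently numbered libraries were not compared in this way, so these values cannot show whether the numbers are pairs. With the replicate block 7 members passed in MkP against LTHSC (Eng lost, adjusted p 0.185), 9 in preMegE against LTHSC, 4 in MkP against preMegE (Cd34 lost, adjusted p 0.121) and 0 in VF against KI in preMegE and in E12 against KI in MkP. The share of all genes that passed with the block is not given here. These counts therefore show how the calls moved, and not how the members stood beside other genes.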
